A study of Mus musculus with 8 samples.

Results

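Reference genes are the transcripts against which others are measured in quantitative PCR and similar assays, and 8 of the genes commonly used for that purpose were followed here in the hippocampus of 7-day-old mice: B2m, Gusb, Hprt, Hsp90ab1, Nono, Ppia, Rpl13a and Tbp. They were picked by name, as the non-control probes whose RefSeq mRNA accession belongs to one of these genes, and are 8 of the 15 genes with a named probe among 60915 non-control probes. Of the groups, 4 arrays hold hippocampal RNA of pups injected intraperitoneally with propofol, an anaesthetic that acts on GABA-A receptors, at 50 mg/kg, and 4 hold that of pups injected with intralipid, the lipid vehicle, also at 50 mg/kg. Both groups had 3 h of exposure and 3 h of washout before the tissue was taken, and the labels used here give no strain, no sex and no statement on pooling. P-values therefore measure the spread between these arrays, whatever the number of animals behind each.

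A reference gene is useful when its level moves little between samples, and when it moves together with other such genes, because a shared movement cancels in their ratio. The genes in the set serve basic functions of several kinds, which is why they are often combined. Tbp encodes the TATA-binding protein that starts transcription by RNA polymerase II, Nono an RNA-binding protein of nuclear paraspeckles, and Rpl13a a protein of the large ribosomal subunit. Hsp90ab1 encodes a constitutive cytosolic HSP90 chaperone and Ppia the prolyl isomerase cyclophilin A, both of protein folding. Hprt salvages purine bases, Gusb breaks down glycosaminoglycans in the lysosome, and B2m is the invariant subunit of MHC class I, which neurons of the developing brain make as well.

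Of the 28 pairs that the 8 genes form, Nono and Tbp kept the steadiest ratio over the 8 arrays, and B2m and Ppia the least steady. The RefSeq promoter windows of the steadiest pair and of Ppia, whose ratios to the rest of the set varied most on average, are shown as a description. That place of Ppia holds within the 8 genes only, since over all 15 named genes only Hsp90ab1 had steadier ratios on average. Whether the sequences bear on the ratios was not tested. Each window runs from 250 bases before to 50 bases after the annotated start, 5′ to 3′ on the gene's strand in build GRCm38.p6, at chrX:101429401-101429700 on the plus strand for Nono, chr17:15499638-15499937 on the plus strand for Tbp and chr11:6415617-6415916 on the plus strand for Ppia. Capitals mark matches, on either strand, to promoter motifs. The TATA box was searched as TATAAA. The motif bound by the nuclear factor Y complex was searched as CCAAT. The GC box, bound by Sp1, was searched as GGGCGG.
Nono: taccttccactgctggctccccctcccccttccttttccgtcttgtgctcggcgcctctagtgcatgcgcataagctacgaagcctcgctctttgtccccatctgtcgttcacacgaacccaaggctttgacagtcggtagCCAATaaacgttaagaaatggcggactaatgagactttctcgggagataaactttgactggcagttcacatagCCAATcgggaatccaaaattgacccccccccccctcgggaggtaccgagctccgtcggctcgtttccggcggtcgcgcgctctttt
Tbp: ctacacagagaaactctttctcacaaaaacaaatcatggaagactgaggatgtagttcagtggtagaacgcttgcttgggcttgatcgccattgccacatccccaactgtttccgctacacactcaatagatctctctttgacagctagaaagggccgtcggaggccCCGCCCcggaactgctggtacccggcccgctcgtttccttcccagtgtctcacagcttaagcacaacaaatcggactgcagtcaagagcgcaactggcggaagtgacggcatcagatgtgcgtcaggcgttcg
Ppia: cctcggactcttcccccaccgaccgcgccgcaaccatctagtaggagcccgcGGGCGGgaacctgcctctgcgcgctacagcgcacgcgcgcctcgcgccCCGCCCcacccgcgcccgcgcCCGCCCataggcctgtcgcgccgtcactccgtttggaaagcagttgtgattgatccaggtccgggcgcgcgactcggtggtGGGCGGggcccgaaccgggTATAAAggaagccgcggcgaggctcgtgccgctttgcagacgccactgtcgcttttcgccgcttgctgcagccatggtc

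The windows of Nono and Tbp shared none of these motifs. Nono held 2 copies of CCAAT, Tbp 1 copy of GGGCGG, and Ppia 1 copy of TATAAA with 4 of GGGCGG. Ppia also had the most CpG dinucleotides, 43 in 300 bases, against 23 in Nono, 17 in Tbp and a median of 7 over all 32851 windows of the table. Among the 7 genes of the set with a window (B2m, Gusb, Hprt, Nono, Ppia, Rpl13a and Tbp), TATAAA stood in 2, CCAAT in 3 and GGGCGG in 4, where 13.6%, 37.4% and 35.7% of all windows hold them. Gusb had the fewest CpG, 6, and none of the motifs. The motifs do not overlap in letters, and a match is a description of the sequence, not a bound site.

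Each gene was printed on 20 spots per array, all well above background and none saturated, and 15 to 20 spots a gene remained on each array after spots marked as outliers were dropped. The level of a gene is the log2 of the scanner's background-subtracted signal minus the log2 of the 75th percentile of that array, averaged over its spots, so 0 is the brightness that 3 in 4 spots lie below. That percentile was 871 to 1006 signal units on the propofol arrays and 656 to 991 on the vehicle arrays. Slide 2 carried the 4 propofol arrays and slide 1 the 4 vehicle arrays, and the effects of slide and of propofol cannot be told apart. No defining marker of hippocampal neurons or of other brain cells was among the 15 named genes, so the tissue label could not be checked against markers. Hybridisation was to bulk tissue RNA, in which fewer cells of a type and less RNA per cell cannot be told apart.

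The brightest of the 8 was Ppia, at a mean level of 8.74 over the 8 arrays, followed by Hsp90ab1 at 7.01 and Hprt at 5.41. Nono at 3.68, Rpl13a at 3.63 and B2m at 3.53 formed a middle group whose order did not exceed the spread, since the SD of the log2 ratio between arrays was 0.197 for Nono to Rpl13a and 0.144 for B2m to Rpl13a. Tbp at 0.99 and Gusb at 0.86 were the dimmest, and they too differed by no more than the SD of their ratio, 0.130. That SD is the spread of single arrays and not the error of a mean. Gusb was above Tbp only on propofol replicate 2, and whether their means differ was not tested. These are orders of probe signal, which depends on each probe's binding as well as on its transcript, and are not orders of transcript abundance. Signal from pseudogene copies, of which Ppia and Rpl13a have many, could not be separated because probe sequences were not used here.

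None of the 8 genes passed the test for a change with propofol. By limma over all 47777 tested probes, 0 of the 8 passed an adjusted p of 0.05 and 0 had an unadjusted p under that level, where 0% and 7.86% of all tested probes did. The groups overlapped for each of the 8, while they did not overlap at 5.42% of the tested probes. A mean higher in propofol was found for 6 genes and a lower one for 2, with a median log2 difference of 0.09 over the 8 against -0.04 over all tested probes. The 95% intervals reached at most 0.789-fold on the low side, for Rpl13a, and 1.39-fold on the high side, for B2m, so changes smaller than these are not excluded.

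Among the genes of transcription and RNA, Tbp had levels of 0.82, 0.92, 1.21 and 1.11 on propofol replicates 1 to 4, against 1.08, 0.93, 0.78 and 1.07 on vehicle replicates 1 to 4. The highest and the second highest array were both propofol, but the other propofol arrays lay below most vehicle arrays. The log2 difference, propofol minus vehicle, was 0.05 (SE 0.14, adjusted p = 0.956 in limma, n = 4 each).

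Nono stood at 3.59, 3.54, 3.93 and 3.68 on the propofol arrays, in replicate order, against 3.75, 3.68, 3.44 and 3.86 on the vehicle arrays. The highest value was in propofol replicate 3 and the lowest in vehicle replicate 3, and the means were 3.68 ± 0.17 in propofol and 3.68 ± 0.18 in vehicle (SD, n = 4 each). The log2 difference was 0.0030 (SE 0.14), with a 95% interval from 0.798-fold to 1.26-fold.

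Rpl13a stood at 3.42, 3.73, 3.88 and 3.45 on the propofol arrays and at 3.73, 3.58, 3.69 and 3.55 on the vehicle arrays. Propofol replicates 2 and 3 lay above all vehicle arrays, replicate 2 by a small margin, and propofol replicates 1 and 4 lay below all of them. Their SD was 0.224, against 0.0869 in vehicle, and whether the spread differs between the groups was not tested. The log2 difference was -0.02 (SE 0.14).

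Of the protein-folding genes, Hsp90ab1 had the smallest p of the set, at 0.272 before adjustment. Its levels were 7.10, 7.05, 7.12 and 7.03 on the propofol arrays, against 7.04, 6.91, 6.81 and 7.01 on the vehicle arrays. All 4 propofol arrays lay above the vehicle mean, and the groups overlapped only through vehicle replicate 1, which exceeded propofol replicate 4 by a small margin. The log2 difference was 0.13 (SE 0.11, adjusted p = 0.820 in limma), a 95% interval from 0.918-fold to 1.31-fold, and it was 0.087 without vehicle replicate 3.

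Ppia was the narrowest of the 8, at 8.79, 8.77, 8.66 and 8.62 on the propofol arrays and 8.86, 8.80, 8.73 and 8.69 on the vehicle arrays. Only propofol replicate 1 lay above the vehicle mean. The log2 difference was -0.06 (SE 0.11), from 0.803-fold to 1.14-fold.

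In Hprt, Gusb and B2m, as in Tbp and Rpl13a, propofol replicate 1 was the lowest and propofol replicate 3 the highest of the propofol arrays. Hprt was at 5.20, 5.55, 5.64 and 5.56 on the propofol arrays, against 5.51, 5.28, 5.28 and 5.30 on the vehicle arrays. Propofol replicates 2, 3 and 4 were thus above every vehicle array and propofol replicate 1 was below every one.

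Gusb had the same shape, at 0.66, 0.97, 1.20 and 0.89 on the propofol arrays, while the vehicle arrays held within 0.75 to 0.84. Its SD was 0.223 in propofol and 0.0434 in vehicle.

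B2m was at 3.27, 3.69, 3.83 and 3.61 on the propofol arrays and at 3.48, 3.59, 3.48 and 3.31 on the vehicle arrays, again with propofol replicate 1 below and propofol replicates 2, 3 and 4 above all vehicle arrays. The log2 differences were 0.14 for Hprt (SE 0.14), 0.14 for Gusb (SE 0.14) and 0.13 for B2m (SE 0.15), with adjusted p of 0.848, 0.859 and 0.878 in limma. Without propofol replicate 1 they were 0.24, 0.23 and 0.24, and the adjusted p of Hprt, the lowest of the 3, was then 0.546 in limma. Without propofol replicate 3 they were 0.093, 0.047 and 0.057, in the same order of genes, and without vehicle replicate 4 that of B2m was 0.083.

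**Figure D1:**
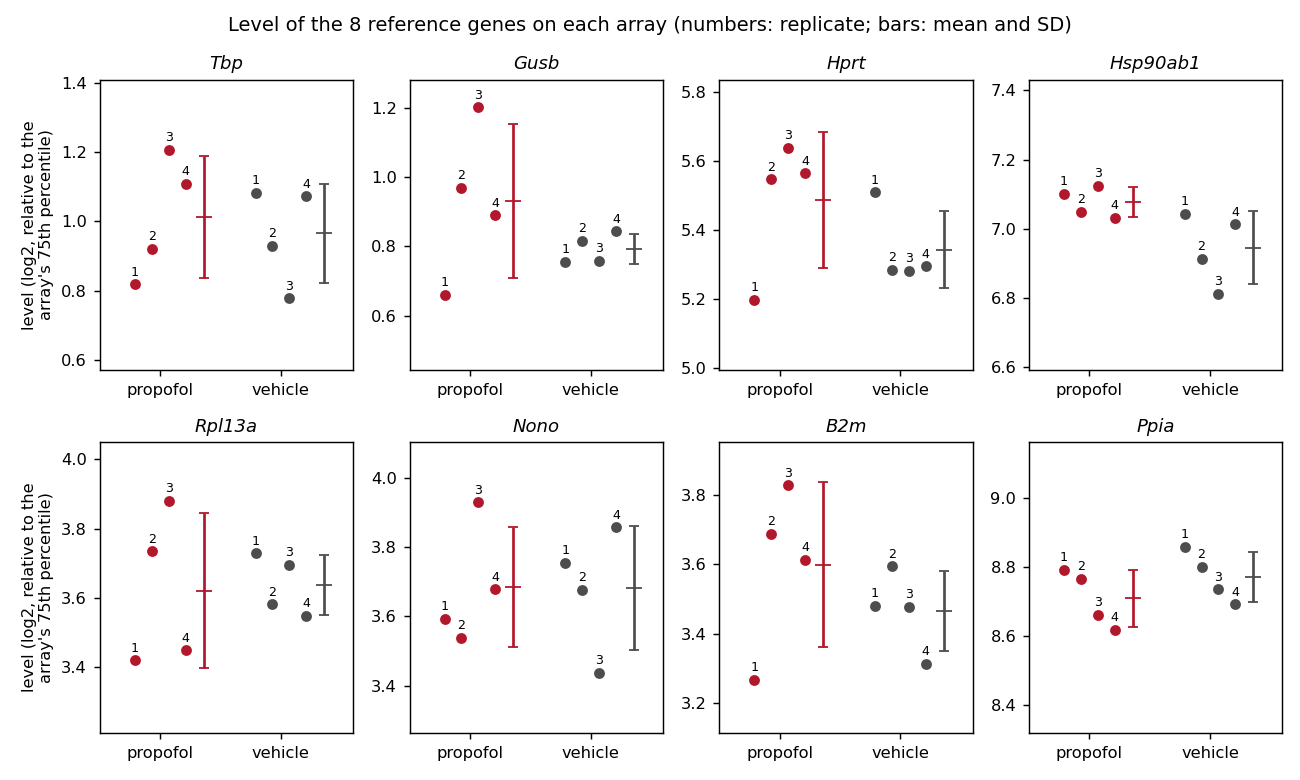
Level of each of the 8 genes (log2, relative to the 75th percentile of the array) on the 4 propofol arrays, left, and the 4 vehicle arrays, right, with replicate numbers and the mean ± SD; all panels span the same range of levels. The groups overlap in every panel, and propofol replicate 1 is the lowest propofol array for Tbp, Gusb, Hprt, Rpl13a and B2m.

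**Figure D2:**
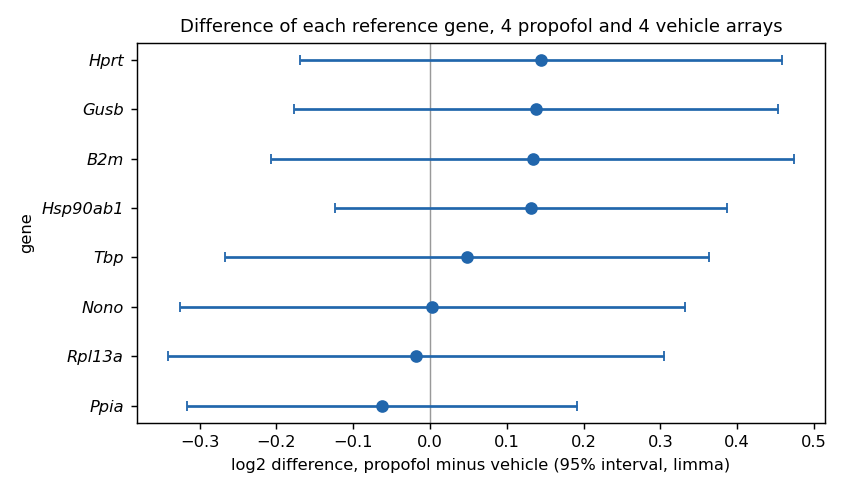
Log2 difference, propofol minus vehicle, of each gene with its 95% interval from limma (4 arrays a group). Every interval includes 0, from Hprt at 0.14 to Ppia at -0.06.

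The spread of the levels between arrays was well above the spot error. The SD between the spots of a gene on an array had a median of 0.0298 over the 8 genes and 8 arrays and reached 0.0609 at most, while the SD of the mean level over the 8 arrays ran from 0.0795 for Ppia to 0.188 for B2m. Between these lay Hsp90ab1 at 0.103, Tbp at 0.151, Rpl13a at 0.158, Nono at 0.163, Gusb at 0.166 and Hprt at 0.167. A spread this low was not particular to the set, since Gapdh and Tuba1b, named genes outside it, had SDs of 0.0873 and 0.107. The remaining named genes ran from 0.186, for Ldhal6b, to 0.370, for G6pd2. Taken from single spots, for a like comparison with probes printed once, the SD of Ppia was lower than that of all but 0.510% of the 46833 tested probes with 1 spot, and that of Hsp90ab1 lower than all but 2.02%. The other 6 genes lay between the 9.88 percentile, Tbp, and the 20.6 percentile, B2m. Against only the 14566 brighter probes above the 75th percentile of their arrays, the positions were 1.06 for Ppia, 3.76 for Hsp90ab1 and at most 32.4, B2m, for the others. All 8 varied less than the median probe, whose SD was 0.277 over all of these probes and 0.227 over the brighter ones. The brighter probes were not matched in brightness to Ppia and Hsp90ab1, whose mean levels were 8.74 and 7.01. The brightest named genes, Ppia, Tuba1b, Gapdh and Hsp90ab1, were also those with the lowest SDs. The part of brightness in these SDs was not tested. The order depended on the scaling: with quantile normalization the SD was 0.240 for Hsp90ab1, 0.245 for Nono and 0.0539 for Ppia, the lowest of the 8. Quantile normalization gives spots of the same rank the same value on every array. That can by itself narrow a gene as bright as Ppia, so its low value there is no separate sign of steadiness.

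Ratios between genes do not depend on a scaling factor of the array, and they gave a different order. For each gene, M is the mean over the 7 others of the SD, over the 8 arrays, of the log2 ratio of the pair, the measure used by the geNorm method, and a lower M is a steadier gene. Tbp had the lowest M, 0.144 ± 0.013 (jackknife SE over arrays), followed by Gusb at 0.145 ± 0.016, Hprt at 0.147 ± 0.013, Hsp90ab1 at 0.156 ± 0.035, Rpl13a at 0.166 ± 0.028, Nono at 0.167 ± 0.027 and B2m at 0.169 ± 0.020. Ppia, the steadiest by level, had the highest M, 0.195 ± 0.041. No neighbours in this order differed beyond the jackknife SE of their difference, and the ends, Ppia and Tbp, differed by 0.051 with an SE of 0.045. The order is therefore a description of these 8 arrays. With each array left out in turn, Ppia was the least steady 7 times of 8 and Nono once, without propofol replicate 3, when the M of Ppia was 0.156. With quantile normalization, too, Nono had the highest M, 0.180, and Ppia followed with 0.163. The steadiest gene was Tbp in 3 of these 8 cases, Gusb in 2, Hprt in 2 and Hsp90ab1 in 1.

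**Figure D3:**
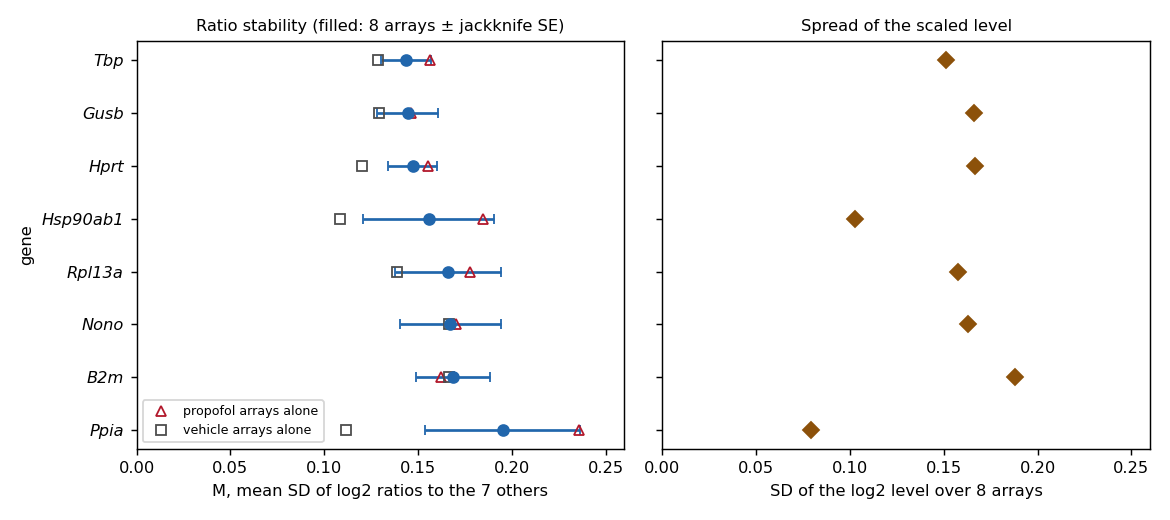
Left, M of each gene over the 8 arrays with its jackknife SE (filled points), over the propofol arrays alone (triangles) and over the vehicle arrays alone (squares); right, the SD of the log2 level over the 8 arrays. Ppia has the highest M, 0.195, and the lowest SD of the level, 0.0795.

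Ppia was thus the steadiest by level and the least steady by ratio over the 8 arrays, although without vehicle replicate 3 Hsp90ab1 and not Ppia had the lowest SD of the level. Its ratio to each of the 7 other genes had a larger SD than its own level, from 0.137 for Hsp90ab1 to 0.227 for B2m. This follows in part by arithmetic, since a ratio to a gene of much larger SD cannot be as narrow as Ppia itself. On the propofol arrays the log2 ratio of B2m to Ppia was -5.52, -5.08, -4.83 and -5.00, against -5.38, -5.20, -5.26 and -5.38 on the vehicle arrays. Propofol replicate 1, lowest in B2m, was the highest propofol array in Ppia, which widened the ratio. Over the propofol arrays alone the M of Ppia was 0.236, the highest of the 8, and over the vehicle arrays alone it was 0.112, the second lowest after Hsp90ab1 at 0.109. Whether M differs between the groups was not tested. Over the 8 genes the mean M was 0.174 on the propofol arrays and 0.134 on the vehicle arrays.

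Of the 14 other named genes, the nearest to Ppia was Tuba1b, an alpha-tubulin outside the set, with an SD of the log2 ratio of 0.0806, and Gapdh, of glycolysis, followed with 0.0808. Its ratios to the 5 remaining named genes outside the set had SDs above the lowest within it, at 0.188 for Ldhal6b, 0.206 for Actb, 0.345 for Gk, 0.379 for Tfrc and 0.387 for G6pd2. Tuba1b and Gapdh are the brightest named genes after Ppia, with mean levels of 8.24 and 7.97, and the part of brightness in these ratios was not tested. When M was taken over all 15 named genes, Hsp90ab1 was steadiest at 0.214 and Ppia second at 0.217, and the 8 genes filled the first 10 places with Tuba1b and Gapdh. The 5 other named genes, Ldhal6b, Actb, Tfrc, G6pd2 and Gk, had values from 0.306 to 0.445, against 0.241 for B2m, the highest of the 8. For the 7 other genes of the set the nearest named gene was always within the set.

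Nono and Tbp moved together most closely. Their log2 ratio was 2.77, 2.62, 2.72 and 2.57 on the propofol arrays and 2.67, 2.75, 2.66 and 2.78 on the vehicle arrays, an SD of 0.0767 against 0.163 and 0.151 for the levels of the genes themselves. The log2 contrast of control spots for mouse Pgk1 with the suffixes 3 and 5, taken as the ends of the transcript, was 8.88, 8.76, 8.39 and 8.32 on the propofol arrays and 8.33, 8.66, 8.97 and 8.19 on the vehicle arrays. The 4 arrays with the highest contrast, vehicle replicates 3 and 2 and propofol replicates 1 and 2, were also the 4 lowest in Nono and the 4 lowest in Tbp. Its part in their shared movement was not tested.

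The next lowest values were those among B2m, Gusb and Hprt. The SD of the log2 ratio was 0.0988 for B2m to Gusb, 0.112 for B2m to Hprt and 0.112 for Gusb to Hprt, in each case below the SD of either level. The ratio of B2m to Gusb was 2.61, 2.72, 2.63 and 2.72 on the propofol arrays and 2.73, 2.78, 2.72 and 2.47 on the vehicle arrays, with vehicle replicate 4 as the low value. In all, 10 of the 28 pairs had a ratio steadier than the steadier of their genes, and the median SD over the 28 was 0.158. Pairs across these sets of genes ranged widely, with 0.116 for Hprt to Tbp and 0.130 for Gusb to Tbp, near the values within the set, and 0.221 for B2m to Nono.

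**Figure D4:**
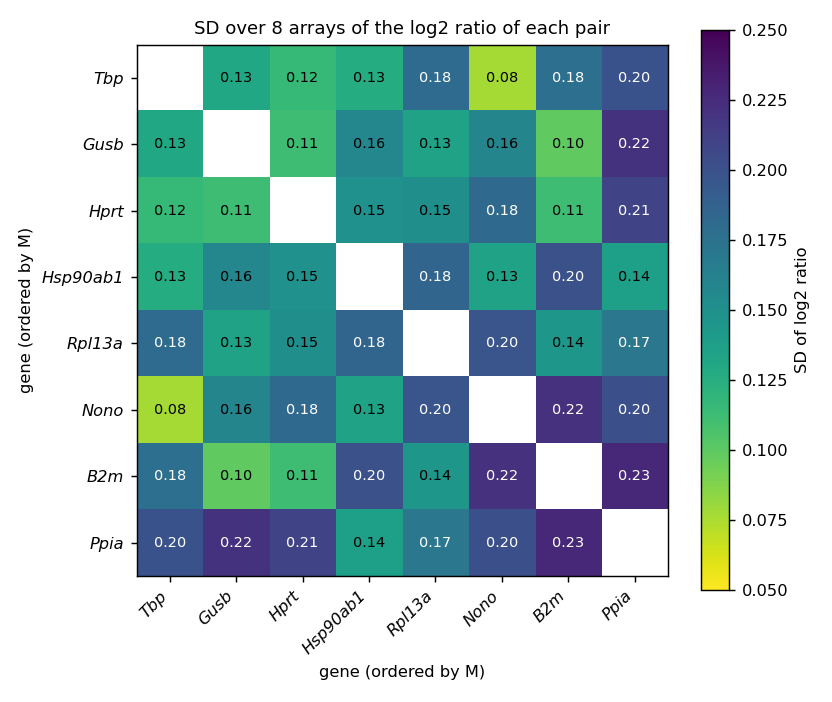
SD over the 8 arrays of the log2 ratio of each pair of genes, with genes ordered by M on both axes. The lowest value is that of Nono with Tbp, 0.077, and the row of Ppia holds the highest, 0.227 with B2m.

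None of the 28 ratios passed the test for a difference between propofol and vehicle. By an exact two-sided permutation test over the 70 assignments of the arrays, 0 had an unadjusted p under 0.05, where 4 against 4 arrays can reach 0.0286. The groups overlapped in all 28, which is 0% without overlap. The 28 ratios share genes and are not independent, and no share over ratios of other probes was taken to set beside these counts. The smallest exact p was 0.0857, adjusted to 0.753 over the 28 pairs, for Hsp90ab1 to Ppia and for Hprt to Rpl13a. The log2 ratio of Hsp90ab1 to Ppia was -1.69, -1.72, -1.54 and -1.58 on the propofol arrays and -1.81, -1.89, -1.92 and -1.68 on the vehicle arrays. Vehicle replicate 4 alone lay among the propofol values, and the mean difference was 0.19. The ratio of Hprt to Rpl13a differed by 0.16, and each propofol array exceeded the mean of vehicle. Differences near 0 were found among B2m, Gusb and Hprt, at -0.0040 for B2m to Gusb, -0.01 for B2m to Hprt and -0.0065 for Gusb to Hprt. Without propofol replicate 1 the ratios of B2m, Gusb and Hprt to Ppia, and without vehicle replicate 4 those of Gusb to Rpl13a and Hsp90ab1 to Ppia, reached the exact p of 0.0286 that 4 against 3 arrays allow at best, where the smallest p adjusted over the 28 pairs was 0.267.

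Dropping the gene with the highest M step by step removed Ppia first, at 0.195, then Rpl13a at 0.165, B2m at 0.162, Hsp90ab1 at 0.142, Nono at 0.139 and Tbp at 0.123. Gusb and Hprt remained, with an SD of their ratio of 0.112. The last pair was not settled by these arrays. Gusb and Hprt also remained without vehicle replicate 1, without vehicle replicate 3 and with outlier spots kept. Leaving out any other single array ended with another pair, such as Nono with Tbp without propofol replicate 2 and Hsp90ab1 with Tbp without propofol replicate 1. Processing changed the pair as well. It was Nono with Tbp under normexp background correction and under the median over spots, and B2m with Gusb under quantile normalization. Adding a gene to the mean of those already taken shifted that mean with an SD over arrays of 0.0366 when Tbp joined Gusb and Hprt. The SD was 0.0323 when Nono joined, and 0.0195 to 0.0242 for the genes added after that. A gene added later has a smaller weight in the mean, which lowers this SD by arithmetic. These values therefore do not show how well an added gene goes with the others. The mean of Gusb and Hprt had an SD of 0.157 over the 8 arrays and a log2 difference of 0.14 between propofol and vehicle. The mean of all 8 genes had an SD of 0.103, and lay between 4.11 and 4.43 on the propofol arrays and between 4.12 and 4.28 on the vehicle arrays.

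Scaling the arrays to a gene subtracts that gene's own log2 difference from that of every probe. The balance of the comparison over all probes thus in part restates the differences given above, none of which passed a test. The level is subtracted array by array, so the spread of every probe between arrays changes as well, and the counts depend on that too. With the arrays scaled so that 1 gene had the same level on all of them, limma gave 0 of 47777 probes past an adjusted p of 0.05 for each of the 8 genes, with the smallest adjusted p between 0.149, for Hsp90ab1, and 0.332, for Gusb. Probes at an unadjusted p under 0.05 numbered 6854 with Hsp90ab1 as the scale, 642 of them higher and 6212 lower in propofol, so that 9.37% were higher. With Ppia they numbered 3036, with 2130 higher and 906 lower, or 70.2% higher. Scaled to the 75th percentile, 1699 of 3756 were higher, or 45.2%, and scaled to the mean of the 8 genes 1122 of 4244, or 26.4%. The median log2 difference of all tested probes moved with the scale, to -0.18 with Hprt and to 0.02 with Ppia, against -0.04 with the 75th percentile. Rpl13a gave the fewest probes at that level, 2081, and Nono the split nearest to that of the 75th percentile, 43.6% higher.

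**Figure D5:**
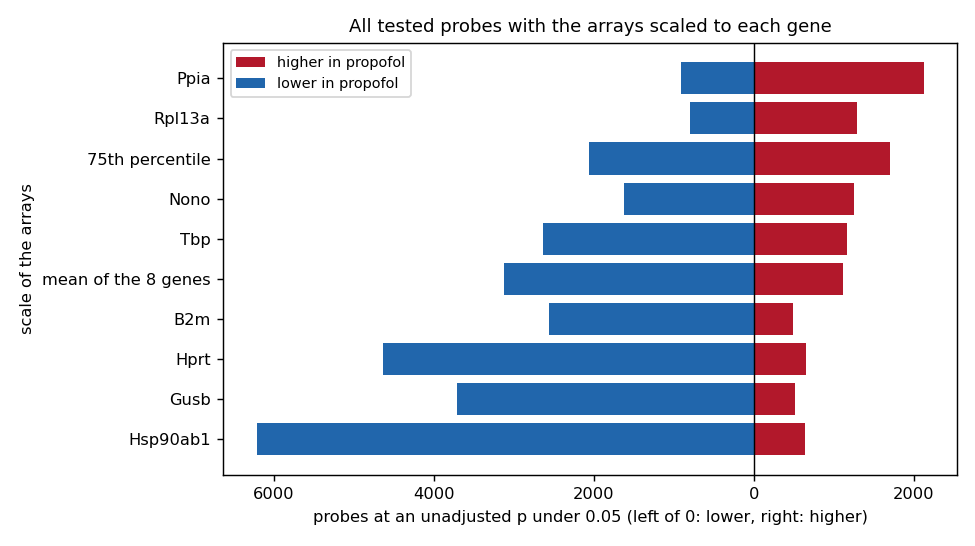
Number of tested probes at an unadjusted p under 0.05 in limma, higher (right) or lower (left) in propofol, with the arrays scaled to each of the 8 genes, to their mean or to the 75th percentile. The share that is higher runs from 70.2% with Ppia to 9.37% with Hsp90ab1, and 0 probes pass after adjustment with any of these scales.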

How the data were processed

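Total RNA of hippocampus was depleted of ribosomal RNA, labelled with Cy3 using oligo(dT) and random primers, and put on 8 1-colour Agilent arrays; this is per the labels' protocols. Per the file headers, the deposited spot intensity is background-subtracted, made with version 11.0.1.1 of Feature Extraction (Agilent). The submitters' value table was not used, since it holds 0 of the 8 genes' probes. Left out were control spots and 15 probes with negative-control names. The deposited intensities were taken as log2 minus the log2 75th percentile of the array, outlier spots (0.413%) were dropped and spots averaged. Probes well above background on at least 4 arrays, with 2 or more unflagged arrays per group, were tested with limma 3.58.1 in R 4.3.3 with Benjamini-Hochberg adjustment, which was also tested on simulated data. Ratios were tested by exact permutation. M and its jackknife SE were computed over arrays. All 8 genes are named; beside each, the named gene with the steadiest ratio was listed. Accessions were matched without versions to RefSeq (GRCm38.p6). Members and lists were chosen with earlier results of these data known. The number of arrays limits the precision. Alternatives were other scalings, normexp, other filters and spot summaries, variance models, a replicate block, a Pgk1 covariate and leaving out each array.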

Additional observations from a re-analysis of the deposited data

Results flagged for a closer look

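Of 72 groups of 4 values examined, 16 of levels and 56 of ratios, 4 held a value far from the other 3, where chance gives about 1 in 20. Vehicle replicate 1 had a log2 level of Hprt of 5.51, and the remaining vehicle arrays had 5.28 to 5.30. Propofol replicate 1 had a log2 ratio of Hprt to Hsp90ab1 of -1.90, and the remaining propofol arrays had -1.50 to -1.47. Propofol replicate 4 had a log2 ratio of Hprt to Rpl13a of 2.12, with 1.76 to 1.81 on the rest of its group. Vehicle replicate 2 had a log2 ratio of B2m to Rpl13a of 0.014, with -0.25 to -0.22 on the rest of its group.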

How the results depend on the processing

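Under the 12 alternatives to the limma fit and with each array left out, 0 of the 8 genes passed the adjusted threshold or had an unadjusted p under 0.05 (limma, adjusted p at least 0.374). Signs turned for Nono, to -0.10 with quantile normalization, -0.029 with the 75th percentile over probes detected on all 8 arrays, -0.062 with the mean of the 8 genes as scale and -0.027 with array weights. They turned for Ppia with quantile normalization (0.010), for Tbp with the mean of the 8 genes as scale (-0.016) and for Rpl13a with array weights (0.071). Without a turn of sign, the differences of B2m, Hprt and Hsp90ab1 were 0.042, 0.039 and 0.048 with quantile normalization, and those of B2m, Gusb, Hprt and Hsp90ab1 were 0.069, 0.073, 0.079 and 0.067 with the mean of the 8 genes as scale. With 1 array left out, the log2 difference ran from -0.079 to 0.062 for Nono, -0.10 to 0.049 for Rpl13a and -0.016 to 0.11 for Tbp. The number of ratios at an unadjusted exact p under 0.05 was 2 with quantile normalization and ran from 0 to 3 with 1 array left out. The mean M of the 8 genes was 0.161, and it was 0.228 when ratios to all 15 named genes were used. It was 0.174 on propofol arrays alone and 0.134 on vehicle arrays alone. From levels minus the mean of the 8 genes, which is another measure, the value was 0.108. With quantile normalization Nono (0.180) and not Ppia (0.163) had the highest M. The last pair's SD ran from 0.061 to 0.120 with 1 array left out. Over all probes, 3756 had an unadjusted p under 0.05 in limma, against 6206 with no filter on dim probes (60828 tested), 8339 with array weights, 2495 with the replicate block and 2514 to 5235 with 1 array left out; after adjustment 3 passed with normexp and 0 otherwise. With the replicate block, 0 of the 8 genes passed in limma, and 0 probes did with the mean of the 8 genes as scale; the exact sign-flip test of the ratios cannot fall below 0.125. Over the tested probes as a whole, arrays with the same number did not deviate together (r of -0.33, 0.07, -0.11 and 0.22). Ppia, unlike the other genes of the set, fell from replicate 1 to replicate 4 in both groups. Each propofol array was below the vehicle array of the same number in Ppia. The deposited values were not run, since the genes are not in that table. The causes of the changes under these alternatives were not tested.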
